A study of Mus musculus with 12 samples.

Results

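Mouse eggs depleted of Dcp1a and Dcp2 together were compared with control-injected eggs. The comparison used 6 of the 12 arrays of the series, the 3 titled for the double knockdown and the 3 titled for the control siRNA, chosen by those titles. The other 6 arrays, 3 of each single knockdown, shared in the estimate of the spread. Dcp2 is the enzyme that removes the 5′ cap from mRNA, and Dcp1a is a cofactor that binds and stimulates it. A decapped mRNA is open to exonucleases that digest it from its 5′ end. A full-grown oocyte makes almost no new RNA, so maturation to the egg depends on mRNA stored during growth, and some of that store is destroyed on the way.

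All eggs came from CF1 mice. Full-grown oocytes were injected with pooled siRNAs (ON-TARGETplus SMARTpool) against Dcp1a and Dcp2 mixed, or with a control siRNA. They were held in meiotic arrest in CZB medium with milrinone for 20 h and then matured for 18 h, so the controls share the injection, the culture and the arrest. Each array held the RNA of 30 metaphase II eggs, with 3 biological replicates per group, and the p-values measure the spread among such pools. An siRNA pool lowers an mRNA without deleting the gene, and no protein level was part of these data.

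The arrays read as eggs. Of 53 egg and maternal-effect genes on the array, 49 read above 32 intensity units on all 3 arrays of both groups. Of 27 cumulus and granulosa cell markers, 25 were at or under 32 on all 3 arrays of both groups, and of 25 markers of other ovarian, stromal and blood cells, 24 were. Between 23.6% and 25.1% of probe sets on each array read above 32. Control replicate 1 stood apart from its group, with r of 0.954 and 0.938 to the other controls and 0.978 to 0.988 to the Dcp1a knockdown arrays. The double knockdown arrays correlated with each other at r = 0.958 to 0.989, and control replicate 3 with double knockdown replicate 3 at r = 0.956. The log2 ratio of 3′ to middle probe sets of Gapdh, a measure of RNA integrity, was 3.95, 4.81 and 4.69 in control replicates 1 to 3 and 4.31, 4.26 and 4.04 in the double knockdown, so the groups overlapped. Values are relative within an array, so fewer copies of one mRNA and more of the others in an egg cannot be told apart.

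Both targets read low in the double knockdown. The brightest Dcp1a probe set gave intensities of 12427, 5385 and 8083 in control replicates 1 to 3 and of 518, 1233 and 622 in the double knockdown. It fell by 3.47 ± 0.42 on the log2 scale (SE, n = 3 against 3, limma adjusted p = 0.000666), and the groups were far apart. A dimmer Dcp1a probe set gave 36.6, 37.4 and 46.9 in control eggs and 5.6 on each double knockdown array, at least 1.25-fold lower (limma adjusted p = 0.000126). Bounds written as at least N-fold are used where the dimmer group lies at or under a log2 value of 5, 32 intensity units, where the background model of the authors' processing leaves little order. The third Dcp1a probe set spread from 25.9 to 3376 within the control group and was not called. The Dcp2 probe set gave 32.2, 30.4 and 81.8 in control eggs and 5.0, 4.9 and 4.9 in the double knockdown, at least 1.35-fold lower (limma adjusted p = 0.000378). Dcp2 was thus near the floor in control eggs too, and its call and that of the dimmer Dcp1a probe set ended when values under 32 were set to 32 (limma adjusted p = 0.38 and 0.166).

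More transcripts read higher than lower after the double knockdown. Of 11593 probe sets tested, 768 (6.62%) were called higher and 243 (2.1%) lower at an adjusted p under 0.05. With each gene counted once by its brightest probe set, 475 of 6998 genes (6.79%) were called higher and 116 (1.66%) lower. Among probe sets called higher the median log2 change was 1.58, with 137 under 1, 391 between 1 and 2 and 240 at 2 or over. Among those called lower it was -1.2, with 68, 156 and 19 in the same classes. The smallest called changes were 0.55 upward and 0.52 downward, and the median over all 11593 probe sets was -0.02.

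Within each call the arrays mostly separated cleanly. The 3 double knockdown arrays all lay on one side of the 3 controls for 762 of the 768 probe sets called higher and for all 243 called lower. A call with 3 arrays against 3 itself favours such separation, so these counts add no support of their own. The share over all 11593 probe sets tested was not counted. Single arrays moved the counts. The number called higher fell to 388 when control replicate 2 was dropped and to 417 and 368 when replicates 1 and 2 of the double knockdown were, and it was 1816 when control replicate 1 was. The number called lower was 72, 117, 76 and 635 in that order, and it was 444 and 431 when double knockdown replicate 3 or Dcp2 knockdown replicate 2 was dropped. With the spread estimated from the 6 arrays alone, 226 were called higher and 51 lower.

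Other probe sets of the same genes were read beside the brightest. Those that passed the filter through the double knockdown arrays alone were not taken out, which favours upward changes among them. The shares are therefore descriptions and not an independent check. Of the 475 genes called higher, 107 had further tested probe sets, 151 in all, of which 74 were called higher, 0 lower and 131 (86.8%) changed in the same direction, with a median log2 change of 1.19. Of the 116 genes called lower, 46 had further probe sets, 65 in all, of which 9 were called lower and 1 higher, and 44 (67.7%) changed in the same direction, with a median of -0.16. Ltn1, a ubiquitin ligase of stalled ribosomes, and Ncl, nucleolin, had probe sets called in both directions. Probe sets that Affymetrix marks as able to bind several transcripts held more upward calls, 12.3% of 1011 _x_at, 8.96% of 993 _s_at and 9.24% of 1873 _a_at probe sets, than the 4.95% of 7716 plain _at probe sets. Calls on _x_at and _s_at probe sets can hold signal of related genes, ribosomal pseudogenes among them. Of the genes named below without such a mark, Qars, Aldoa and Dad1 were read on _x_at probe sets. Aars, Zc3h15 and the brighter probe set of Gpbp1 were of the _s_at type.

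**Figure D1:**
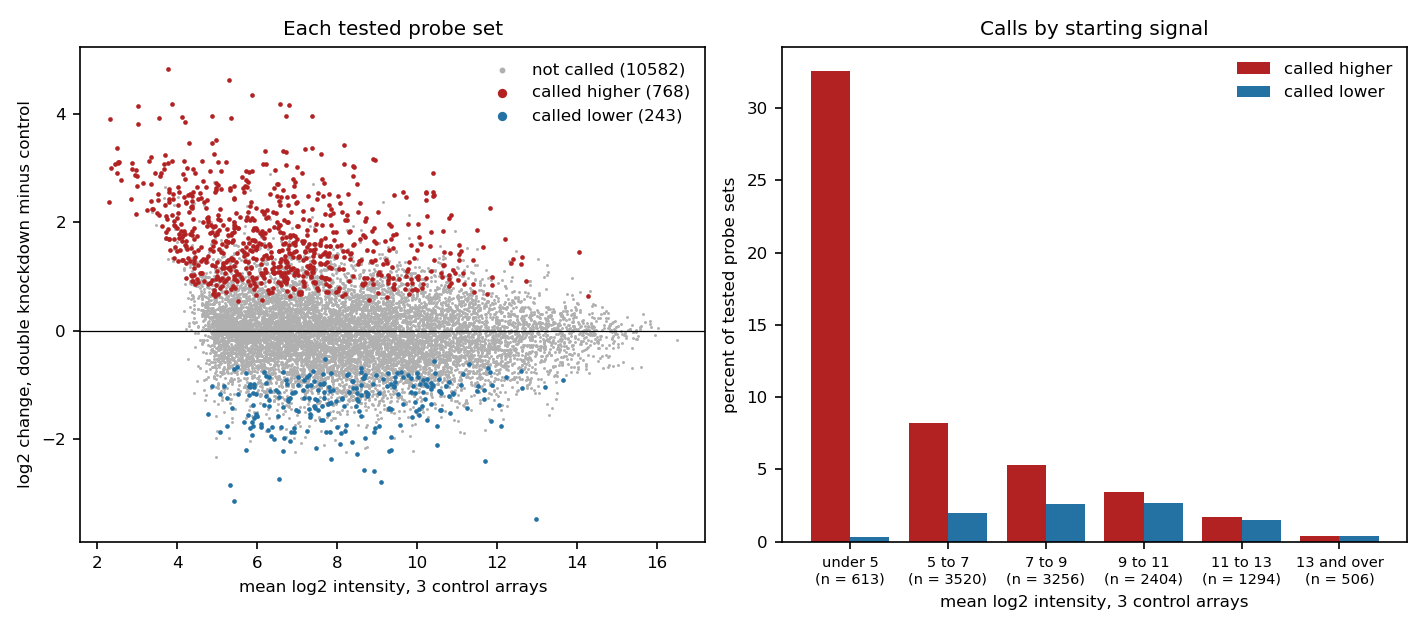
Left, the log2 change of each of 11593 tested probe sets (double knockdown minus control) against its mean log2 intensity in the 3 control arrays, with 768 called higher in red and 243 called lower in blue. Right, bars give the percent of tested probe sets called in each direction in 6 classes of starting signal; upward calls fall from 32.6% in the dimmest class, which holds the 114 probe sets admitted by the double knockdown arrays alone, to 0.395% in the brightest.

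The share of probe sets called higher was lower in brighter classes of starting signal above a log2 value of 5. The shares in the dimmest class and at 5 to 7 depended on the filter. Among 613 probe sets whose mean control log2 value was under 5, 200 (32.6%) were called higher and 2 lower, with a median log2 change of 0.71. The share called higher was 8.21% of 3520 at 5 to 7, 5.31% of 3256 at 7 to 9, 3.41% of 2404 at 9 to 11, 1.7% of 1294 at 11 to 13 and 0.395% of 506 at 13 and over. At 5 to 7 it was 22.7% of 828 with the filter at log2 above 7 and 3.27% of 3543 with no filter. The share called lower stayed between 1.47% and 2.7% from 5 to 13, and was 0.326% and 0.395% in the dimmest and brightest classes. At 9 to 11 there were 82 calls higher and 65 lower, and at 11 to 13 22 and 19. That balance moved with the scaling, to 66 and 102 and to 16 and 30 with median centring, and it was 302 and 177 at 9 to 11 without control replicate 1.

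The dimmest class cannot be read as a response of rare transcripts, because the filter itself selects for it. Of all tested probe sets, 114 passed through the double knockdown arrays alone, all of them in that class, and 106 of these were called higher, as their selection favours. That count covers only probe sets with no other array above a log2 value of 5. Those with some other arrays above it, but too few to pass without the double knockdown, were not counted. With the filter on the single-knockdown arrays, 193 probe sets had a control mean under 5, and 24 (12.4%) were called higher. Classes set by the 6 single-knockdown arrays gave 30.5% of 662 called higher in the dimmest class, which still held the same 114. With the filter and the classes both set by the single-knockdown arrays, a setting chosen after the values had been seen, 12 of 143 probe sets (8.39%) in the dimmest class were called higher, with a median log2 change of -0.12. From there the shares were 7.54%, 4.94%, 2.9%, 1.5% and 0.397% up to the brightest class, and 524 probe sets in all were called higher and 202 lower. With no filter, 0.735% of 34034 probe sets under 5 were called higher, fewer than the 3.27% at 5 to 7. Between 5 and 13 and over, the shares without a filter were 3.27%, 1.69%, 1.21%, 0.618% and 0%, and without control replicate 1 they were 16.6%, 15.4%, 12.7%, 8.9% and 3.99%.

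Abundant transcripts did not move upward as a whole. The median log2 change was -0.13 at a control value of 9 to 11, -0.14 at 11 to 13 and -0.04 at 13 and over. By array, the median deviation from the control mean at 9 to 11 was -0.13, -0.24 and 0.05 in double knockdown replicates 1 to 3, so replicate 3 did not share the lower median. A probe set's brightness depends on its probes as well as on the transcript, so these classes order signal and only roughly abundance.

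Examples from each class show the scale of the changes. At the floor, Mrpl12, a mitochondrial ribosomal protein that also binds the mitochondrial RNA polymerase, gave intensities of 8.6, 7.0 and 8.6 in control eggs and 103, 132 and 104 after the double knockdown, at least 3.51-fold higher (limma adjusted p = 1.24e-06). Atp5o, a stalk subunit of ATP synthase, went from 4.9, 5.0 and 5.3 to 37.1, 43.8 and 41.3, at least 1.27-fold higher (limma adjusted p = 1.24e-06). In the single knockdowns Mrpl12 read 7.3 to 9.2 and Atp5o 4.9 to 5.2. Both probe sets passed the filter through the double knockdown arrays alone, so a difference was a condition of their being tested. The same holds for 15 of the 119 probe sets named by rule, among them those given for Eif3l, Utp11, Mrps7, Atp5g1, Srm, Cops6, Cltb and Ap3d1, whose values are descriptions. Further probe sets had some other arrays above 32 units, but too few to pass without the double knockdown. Those of Ppil3, Emg1, Ndufb10 and Timm50 are among them, and their values are descriptions too. The 2 probe sets called lower in this class belonged to Csrnp3 and Rmdn2, whose control values were themselves mostly near 32 units, and no fold is given for them.

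At a control log2 value of 5 to 7, the leading calls were Fcf1, a factor for cutting ribosomal RNA precursors, and Rpl6, a protein of the large ribosomal subunit. Fcf1 read 35.9, 33.0 and 57.8 in control eggs and 548, 851 and 512 after the double knockdown (log2 change 3.92 ± 0.28, limma adjusted p = 1.86e-05). Rpl6 read 81.9, 86.0 and 109 against 459, 670 and 695 (2.71 ± 0.20, limma adjusted p = 2.72e-05). At 7 to 9, Stx5a, a SNARE of the Golgi, read 456, 351 and 753 against 3716, 6294 and 3662 (3.16 ± 0.33, limma adjusted p = 0.000281; an _s_at probe set). In the downward direction in that class, Stk36, a kinase linked to cilia, read 145, 116 and 130 against 49.5, 38.4 and 53.4 (-1.48 ± 0.20, limma adjusted p = 0.00137). One probe set of Brwd1, a chromatin reader needed in female meiosis, read 266, 324 and 233 against 77.5, 68.3 and 75.1 (-1.89 ± 0.23, limma adjusted p = 0.000735). The brightest Brwd1 probe set did not share this, at 0.27 ± 0.30.

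Leading calls of brighter transcripts ran in both directions. At 9 to 11, Cep135, a centriole protein, read 892, 1019 and 861 in control eggs and 412, 433 and 417 after the double knockdown (-1.13 ± 0.16, limma adjusted p = 0.00207). A probe set of Edrf1 read 524, 666 and 480 against 85.0, 46.6 and 129 (-2.79 ± 0.37, limma adjusted p = 0.00125), while the brightest Edrf1 probe set had -0.92 ± 0.63 and was not called. The same Edrf1 probe set read 147, 155 and 82.9 after Dcp2 siRNA alone (-2.16 ± 0.37, limma adjusted p = 0.195). Other falls also showed after Dcp2 siRNA alone without a call there. The Brwd1 probe set had -1.14, and Nap1l3, Psmc1 and Srsf10, given below, had -1.47, -1.02 and -0.92. Cep135 and Stk36 changed less after it, by -0.29 and 0.01. At 11 to 13, a probe set of Arhgap12 read 3367, 3937 and 3768 against 1664, 855 and 1109 (-1.66 ± 0.27, limma adjusted p = 0.00379). After Dcp2 siRNA alone it read 1537, 1296 and 1123 (-1.49 ± 0.27, limma adjusted p = 0.21). Setd4, a lysine methyltransferase, read 2480, 2551 and 3130 against 6466, 7865 and 5783 (1.30 ± 0.20, limma adjusted p = 0.00255). Gdi2, which keeps Rab GTPases in their inactive form, read 2243, 1790 and 2394 against 4921, 5871 and 4951 (1.30 ± 0.18, limma adjusted p = 0.0018; an _x_at probe set), and 2 further _x_at probe sets of it rose by 1.24 and 1.22.

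Of the brightest transcripts few were called. Elobl, an elongin B-like gene, read 12375, 14616 and 27512 in control eggs and 46592, 56948 and 38752 after the double knockdown (1.46 ± 0.34, limma adjusted p = 0.024), with control replicate 3 nearest the double knockdown. Gpbp1, a promoter-binding protein, fell on 2 probe sets. Its brighter one read 10573, 15811 and 12727 against 6627, 7473 and 6446 (-0.91 ± 0.20, limma adjusted p = 0.0169), and its other one had -1.42 ± 0.27. Zc3h15, a zinc finger protein, read 8148, 10865 and 9496 against 5621, 3006 and 5702 (-1.04 ± 0.26, limma adjusted p = 0.0296). The call for Zc3h15 ended under 7 of the alternative settings tried and that for Elobl under 6.

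**Figure D2:**
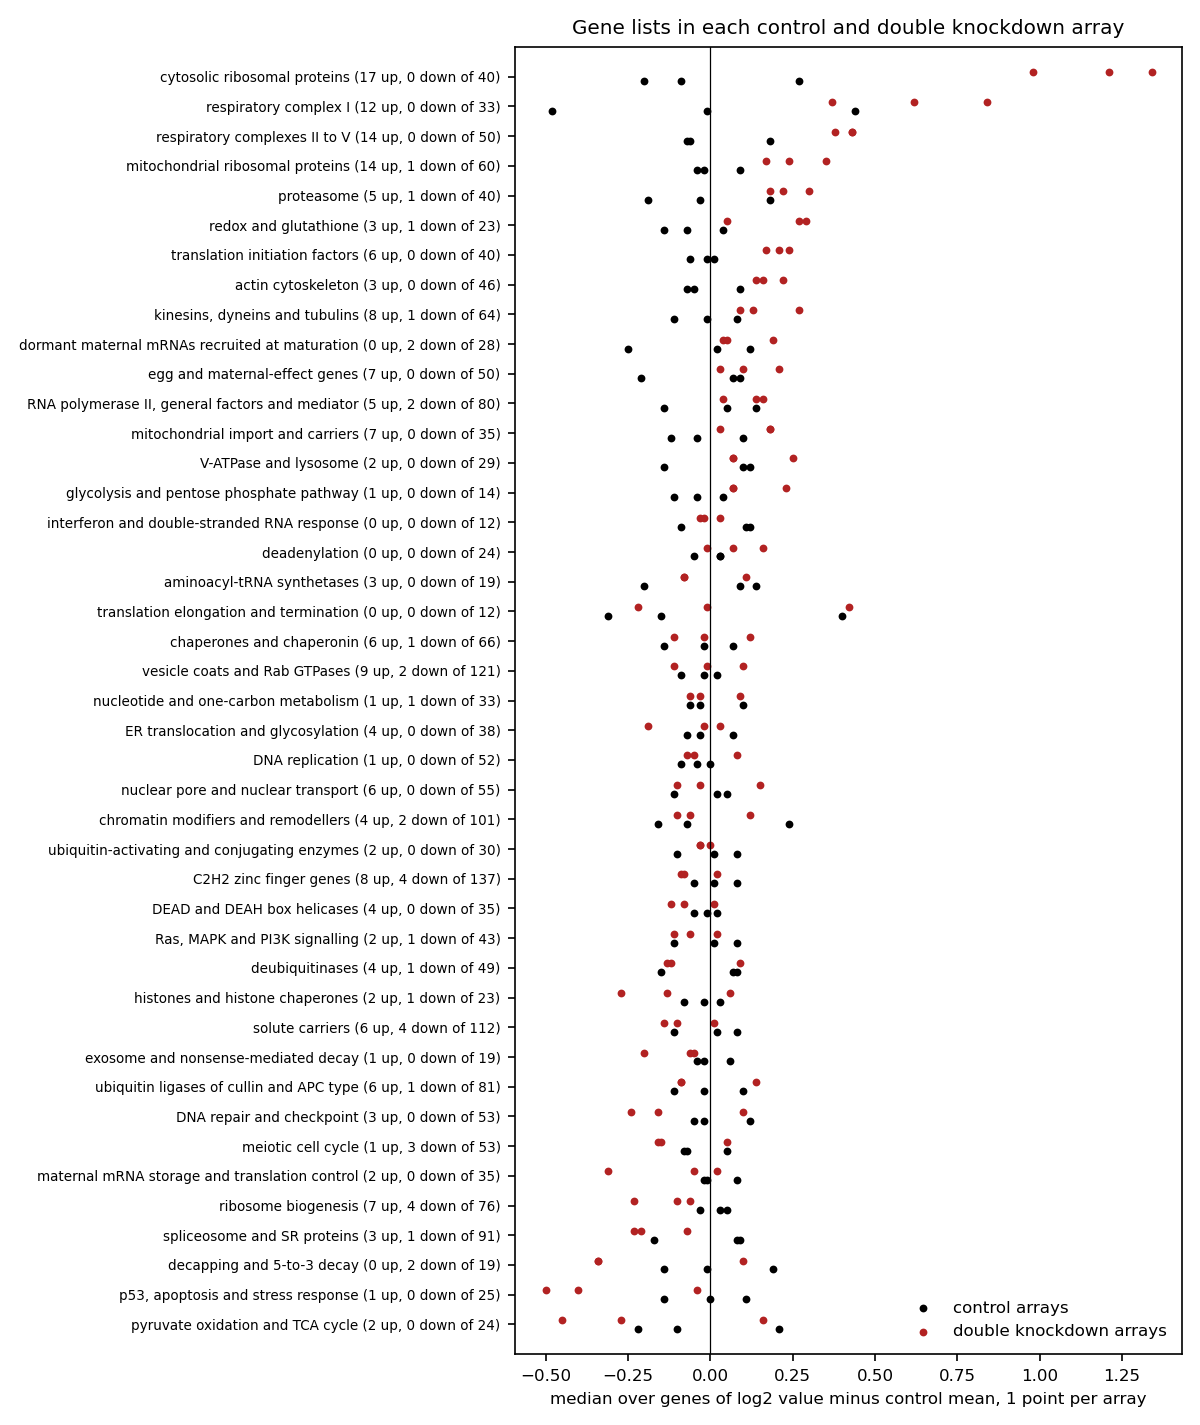
Each row is a list of genes of one function, with the numbers called higher and lower of those tested in its label. Points give the median over its genes of the log2 value minus the control mean, 1 point per array, black for the 3 control and red for the 3 double knockdown arrays. Only the cytosolic ribosomal proteins have all 3 double knockdown arrays at 0.98 or over.

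The genes tested were sorted into 45 hand-written lists by function, which held 2005 of the 6998 genes. Of the genes in a list 188 (9.38%) were called higher and 33 (1.65%) lower, against 287 (5.75%) and 83 (1.66%) of the 4993 in no list. The highest shares called higher were in lists of ribosomal and respiratory chain proteins, though most genes called higher were in no list. Those 4 lists held 57 of 183 genes called higher (31.1%) and 1 lower (0.546%), with a median log2 change of 0.54 against 0.0 over all genes. These shares are descriptions, set beside 6.79% and 1.66% over all genes. Of the genes in the 4 lists, 1 cytosolic and 3 mitochondrial ribosomal proteins and 3 genes of complexes II to V passed the filter through the double knockdown arrays alone. With the filter on the single-knockdown arrays, 15 of 36 cytosolic ribosomal proteins, 9 of 30 complex I genes, 9 of 43 genes of complexes II to V and 9 of 54 mitochondrial ribosomal proteins were called higher, against 328 of 6712 genes (4.89%).

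Cytosolic ribosomal proteins, the structural parts of the ribosome that translates nuclear mRNA, moved furthest. Of 40 tested, 17 were called higher and 0 lower, with a median log2 change of 1.20. By array, the median deviation from the control mean was -0.20, -0.09 and 0.27 in controls 1 to 3 and 1.21, 1.34 and 0.98 in the double knockdown. It lay between -0.36 and 0.10 in the 6 single-knockdown arrays, so it was high after the double knockdown and in no other group. Rps15 of the small subunit read 219, 179 and 215 in control eggs and 1140, 1889 and 1129 after the double knockdown (2.73 ± 0.31, limma adjusted p = 0.000482). Rpl37a of the large subunit, on an _x_at probe set, read 146, 233 and 213 against 488, 736 and 645 (1.67 ± 0.24, limma adjusted p = 0.00176). Rpl10a, Rpl19, Rps4x and Rpl7a rose by 3.42, 3.30, 3.02 and 2.81, and Rps10 by 1.26. The probe sets of Rpl35 differed. Its 4 _x_at probe sets changed by 1.03 to 2.57 and were called, while the brightest had 0.63 ± 0.37 and was not. The number called fell to 11 without control replicate 2, to 12 and 10 without double knockdown replicates 1 and 2, to 5 with the spread of the 6 arrays alone and to 7 with no filter on low values, while the median lay between 0.80 and 1.33 over the alternatives run.

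The remaining translation genes moved in part, beside 6.79% called higher and 1.66% lower over all genes. Of 40 initiation factor genes, which bring mRNA and initiator tRNA to the ribosome, 6 were called higher and 0 lower, with a median of 0.19. Eif3l, a subunit of the factor eIF3, read 10.5, 10.4 and 15.2 in control eggs and 78.2, 99.0 and 82.9 after the double knockdown, at least 2.7-fold higher (limma adjusted p = 1.72e-05). Eif4e2, a cap-binding homologue that can hold translation back, read 151, 174 and 133 against 527, 655 and 496 (1.87 ± 0.24, limma adjusted p = 0.000983). Eif4h, a partner of the helicase eIF4A, was called on 3 probe sets. Of 19 aminoacyl-tRNA synthetase genes 3 were called higher, Aars, Qars and Aimp2 (1.80, 1.59 and 1.26), while 0 of 12 elongation and termination genes were called by limma in either direction (median 0.03, with 2 higher and 1 lower at an unadjusted p under 0.05). Genes for building ribosomes were split. Of 76, 7 were called higher, among them Fcf1, Emg1 and Utp11, and 4 lower, Ncl, Rpf2, Gtpbp4 and Taf1b, with a median of -0.15. Without single arrays the downward calls in that list were 1 to 6. The number of initiation factors called higher was 3 without control replicate 2 and 12 without control replicate 1.

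Respiratory complex I, which passes electrons from NADH to ubiquinone, had 12 of 33 genes called higher and 0 lower, with a median of 0.63. Ndufa8 read 56.7, 43.5 and 61.4 in control eggs and 219, 260 and 210 after the double knockdown (2.10 ± 0.19, limma adjusted p = 0.000112). Ndufa12, on an _x_at probe set, read 36.9, 47.5 and 78.7 against 341, 392 and 274 (2.68 ± 0.26, limma adjusted p = 0.000165). Ndufb10 read 19.8, 26.4 and 34 against 116, 118 and 144, at least 3.84-fold higher (limma adjusted p = 0.000186). Ndufb10 would not have passed the filter without the double knockdown arrays, so its values are a description. The catalytic-core subunits Ndufs7, Ndufs8 and Ndufv1 were called too, Ndufs7 and Ndufv1 with log2 changes of 3.06 and 2.49 and Ndufs8 at least 7.49-fold higher. By array the list's median deviation was -0.48, -0.01 and 0.44 in the controls and 0.62, 0.84 and 0.37 in the double knockdown, so control replicate 3 lay above double knockdown replicate 3. The number called was 10 to 15 when single arrays were left out and 6 with the spread of the 6 arrays alone.

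Complexes II to V, which complete electron transport and make ATP, had 14 of 50 genes called higher and 0 lower (median 0.35). All parts were represented, with Sdhb of complex II, Uqcrq, Uqcr11 and Cyc1 of complex III, Cox4i1 and Cox6a1 of complex IV and several ATP synthase subunits. Atp5g1, a ring subunit of ATP synthase, read 14.1, 12.2 and 12.2 in control eggs and 103, 150 and 82.0 after the double knockdown, at least 3.38-fold higher (limma adjusted p = 1.63e-05). Its paralogue Atp5g2 read 36.8, 29.8 and 36.6 against 91.7, 110 and 81.3 (1.45 ± 0.16, limma adjusted p = 0.000468). Atp5j2 was called on 2 probe sets. The brighter, of the _s_at type, read 768, 757 and 1176 against 3886, 4338 and 2482 (1.98 ± 0.28, limma adjusted p = 0.00168). The array medians did not overlap, with -0.06, -0.07 and 0.18 in the controls against 0.43, 0.43 and 0.38. Dropping control replicate 2, or replicate 1 or 2 of the double knockdown, left 9 called, and 7 were left with the spread of the 6 arrays alone and 5 with the stricter filter.

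Mitochondrial ribosomal proteins, which translate the few mRNAs of the mitochondrial genome, had 14 of 60 genes called higher and 1, Mrpl32, lower (median 0.28). Mrpl22 read 25.1, 25.1 and 42.7 in control eggs and 306, 398 and 193 after the double knockdown, at least 8.13-fold higher (limma adjusted p = 0.000219). Mrps7 read 18.5, 16.8 and 16.7 against 51.1, 50.9 and 62.9, at least 1.71-fold higher (limma adjusted p = 0.000219). The array medians were 0.09, -0.04 and -0.02 in the controls and 0.35, 0.24 and 0.17 in the double knockdown, apart but by little. The number called was 9 without control replicate 2, 9 and 10 without double knockdown replicates 2 and 1 and 8 with the spread of the 6 arrays alone. Mitochondrial import had 7 of 35 called higher and 0 lower (median 0.07), among them the channel and motor components Timm50, Timm44 and Timm17a. Timm10b, a chaperone of the intermembrane space, read 97.5, 91.1 and 88.5 against 212, 223 and 192 on an _x_at probe set (1.18 ± 0.15, limma adjusted p = 0.000931).

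Metabolic enzymes held few calls in number, in small lists. The share called higher was 8.33% for pyruvate oxidation and the TCA cycle, 7.14% for glycolysis and 13% for redox genes. For nucleotide and one-carbon genes it was 3.03%, and over all genes 6.79%. Of 24 genes of pyruvate oxidation and the TCA cycle, 2 were called higher and 0 lower, and the list's median was -0.28. Those were Idh3g, a subunit of the NAD-dependent isocitrate dehydrogenase, and Mdh2, the mitochondrial malate dehydrogenase. Idh3g read 41.4, 29.0 and 32.8 in control eggs and 197, 316 and 145 after the double knockdown (2.61 ± 0.36, limma adjusted p = 0.00156). Mdh2 read 66.2, 88.4 and 795 against 1596, 1744 and 1839 (3.37 ± 0.74, limma adjusted p = 0.0185), with control replicate 3 between the groups. Of 14 glycolytic genes 1, Aldoa, was called higher (1.14), on 4 probe sets. Of 23 redox genes 3 were called higher (1 to 7 without single arrays), Gsta4, Hmox2 and Gstp1, and Cat, catalase, lower by a log2 change of -0.81. Gsta4, a glutathione transferase, read 92.3, 94.5 and 204 against 719, 857 and 735 (2.67 ± 0.29, limma adjusted p = 0.000354). Of 33 nucleotide and one-carbon genes Srm, the spermidine synthase, was called higher (at least 3.05-fold) and Ahcy lower (-1.44).

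Genes of protein breakdown and folding were called in both directions. Over all genes 6.79% were called higher and 1.66% lower. The share called higher was 12.5% for the proteasome list and 7.41% for cullin and APC ligases. For deubiquitinases it was 8.16% and for chaperones 9.09%. The ligase, deubiquitinase and chaperone lists thus lay near the share over all genes. Of 40 proteasome genes 5 were called higher and 1 lower (median 0.22), and 1 to 10 were called higher without single arrays. One of the 5, Psmc3ip, matched the name pattern of the list and is a meiotic recombination factor, not a proteasome subunit. Psmb6, a catalytic subunit of the core, read 796, 487 and 658 in control eggs and 1292, 1300 and 1191 after the double knockdown (0.99 ± 0.19, limma adjusted p = 0.00956), while Psmc1, an ATPase of the cap, read 570, 897 and 543 against 314, 138 and 109 (-1.96 ± 0.39, limma adjusted p = 0.0105). Subunits of one complex thus moved in opposite directions. Of 81 cullin and APC ligase genes 6 were called higher and 1 lower, with 2 to 9 higher without single arrays. The APC subunits Anapc2, Anapc7 and Anapc15 were called, of which Anapc2 read 39.0, 32.8 and 41.1 against 104, 143 and 111 (1.66 ± 0.18, limma adjusted p = 0.000296). Cops6 of the COP9 signalosome read 5.0, 5.0 and 7.3 against 48.7, 65.3 and 63.6, at least 1.83-fold higher (limma adjusted p = 5.76e-06). Deubiquitinases had 4 higher and 1 lower of 49 (2 to 9 higher without single arrays), chaperones 6 and 1 of 66, with Hspa8 at 5592, 5140 and 8636 against 18203, 17846 and 12976 (1.36 ± 0.26, limma adjusted p = 0.00896; an _x_at probe set).

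Uba6, a ubiquitin-activating enzyme, behaved in another way. It read 4.9 on all 3 control arrays, 36.4, 10.1 and 44.9 after the double knockdown, and 70.2, 55.9 and 46.7 after Dcp1a siRNA alone, and it was called in both (limma adjusted p = 0.00816 and 0.0291). After Dcp2 siRNA it read 6.6, 4.9 and 4.9, so its signal appeared in both groups that received the Dcp1a siRNA. The double knockdown mean was under the floor, and no fold is given.

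Of 121 vesicle coat and Rab genes of the secretory pathway 9 were called higher and 2, Vps41 and Stx7, lower (median 0.03), with 6 to 19 higher without single arrays. These shares of 7.44% and 1.65% are near the 6.79% and 1.66% over all genes, so they do not set the list apart. Cltb, a clathrin light chain, read 25.2, 24.1 and 31.2 in control eggs and 200, 117 and 123 after the double knockdown, at least 4.44-fold higher (limma adjusted p = 0.000112). Ap3d1, of the AP-3 coat, read 5.5, 10.4 and 18.5 against 94.1, 85.6 and 104, at least 2.94-fold higher (limma adjusted p = 0.000482). Of 38 genes of ER translocation and glycosylation 4 were called higher and 0 lower, with Dad1 and Ost4 of the oligosaccharyltransferase at 1.01 and 1.30. V-ATPase and lysosome genes gave 2 higher and 0 lower of 29. Solute carriers, which move metabolites across membranes, gave 6 higher and 4 lower of 112 (median -0.08), with 2 to 16 higher without single arrays. The shares called higher were 10.5% for the ER list, 6.9% for V-ATPase and lysosome genes and 5.36% for solute carriers.

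Lists of nuclear functions varied in their share of calls, beside 6.79% called higher and 1.66% lower over all genes. The share called higher was 3.3% for spliceosome genes and 6.25% for RNA polymerase II and general factors. Spliceosome genes had 3 of 91 called higher and 1 lower, with a median of -0.20. Their array medians were -0.17, 0.08 and 0.09 in the controls and -0.21, -0.23 and -0.07 in the double knockdown, so the groups overlapped. Ppil3, a cyclophilin of the spliceosome, read 7.7, 6.3 and 52.0 in control eggs and 405, 406 and 344 after the double knockdown, at least 10.2-fold higher (limma adjusted p = 0.000931). Ppil3 would not have passed the filter without the double knockdown arrays, so its values are a description. Srsf10, a splicing regulator, read 686, 609 and 367 against 217, 159 and 117 (-1.75 ± 0.36, limma adjusted p = 0.0135). Of 80 RNA polymerase II and general factor genes 5 were called higher and 2 lower (median 0.07), with 3 to 20 higher without single arrays. Nelfe, of the factor that pauses the polymerase, read 26.7, 29.4 and 38.4 against 306, 481 and 312, at least 10.5-fold higher (limma adjusted p = 0.000121), and Polr2i read 252, 109 and 166 against 745, 1117 and 583 (2.25 ± 0.36, limma adjusted p = 0.00394).

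Chromatin, DNA and transport genes gave the following counts, beside 6.79% called higher and 1.66% lower over all genes. The share called higher was 3.96% for chromatin modifiers, 5.84% for zinc finger genes, 1.92% for replication and 5.66% for repair. For helicases it was 11.4%, for histones and chaperones 8.7% and for nuclear pore and transport genes 10.9%. Chromatin modifiers had 4 higher and 2 lower of 101 (2 to 25 higher without single arrays, the most without control replicate 1), C2H2 zinc finger genes 8 and 4 of 137 (2 to 15 higher without single arrays), DNA replication 1 and 0 of 52 (0 to 8 higher), DNA repair 3 and 0 of 53 (1 to 5), and DEAD and DEAH box helicases 4 and 0 of 35 (4 to 9). Among 23 histone genes and chaperones, H2ax, the variant phosphorylated at DNA breaks, read 449, 243 and 238 in control eggs and 1175, 1592 and 956 after the double knockdown (2.04 ± 0.32, limma adjusted p = 0.00357), and Nap1l3, a nucleosome assembly protein, fell by 2.36. Ddx11, a helicase of sister chromatid cohesion, read 31.9, 23.2 and 47.6 against 184, 256 and 482, at least 7.75-fold higher (limma adjusted p = 0.000582). Nuclear pore and transport genes had 6 of 55 called higher and 0 lower, among them the mRNA export receptor Nxf1, at 40.2, 58.4 and 135 against 179, 258 and 194 (1.61 ± 0.36, limma adjusted p = 0.0204). Dropping control replicate 2, or replicate 1 or 2 of the double knockdown, gave 2 calls, dropping control replicate 3 gave 3 and dropping control replicate 1 gave 12.

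Some egg genes were called higher. Of 50 egg and maternal-effect genes 7 (14%) were called higher and 0 lower, while the median was 0.08. Over all genes the shares were 6.79% and 1.66%, so 0 lower of 50 is near the share over all genes. Zp2, a protein of the zona pellucida that sperm bind, read 1667, 978 and 3472 in control eggs and 7547, 8336 and 6747 after the double knockdown (2.08 ± 0.42, limma adjusted p = 0.0122). Zp3, another zona protein, read 2370, 735 and 3658 against 8035, 9076 and 7495 (2.14 ± 0.47, limma adjusted p = 0.0187). In both genes the 3 double knockdown arrays lay close together and above a wide control group with replicate 3 at its top. Tle6, of the subcortical maternal complex, read 2391, 1243 and 3640 against 6040, 5711 and 6687 (1.47 ± 0.32, limma adjusted p = 0.0184). Gja4, the gap junction protein towards cumulus cells, Gpr3, the receptor that holds meiotic arrest, Zfp57, an imprint-keeping factor, and Astl, the protease that hardens the zona, rose by 2.19, 1.47, 1.55 and 0.95. Zp1 had 1.16 ± 0.37 and Padi6 1.56 ± 0.46 and were not called (limma adjusted p = 0.0805 and 0.0607). The growth factors Gdf9 and Bmp15 had 0.06 ± 0.24 and 0.48 ± 0.31, and Obox5, Oosp1 and Bcl2l10, among the brightest of the list, lay within 0.10 of the control mean. The number called was 3 without control replicate 2, 2 and 0 without double knockdown replicates 1 and 2, and 0 both with the spread of the 6 arrays alone and with no filter on low values.

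Meiotic cell cycle genes were, beside the 2 lists that hold the targets, the list with more downward than upward calls. Of 53 tested, Gpr3 was called higher and Ndc80, Smc1a and Prkar1a lower (median -0.13). Over all genes 6.79% were called higher and 1.66% lower. Ndc80, which couples kinetochores to microtubules, read 1101, 1316 and 1490 in control eggs and 456, 410 and 717 after the double knockdown (-1.34 ± 0.28, limma adjusted p = 0.0155). Smc1a, a cohesin subunit, read 3171, 3955 and 3510 against 2283, 2408 and 1953 (-0.68 ± 0.16, limma adjusted p = 0.024). Prkar1a, a regulatory subunit of protein kinase A, had -1.57 ± 0.40. The number called lower was 0 when control replicate 2 or replicate 1 or 2 of the double knockdown was dropped, and 0 with the spread of the 6 arrays alone. Motor and tubulin genes had 8 higher and 1, Clip1, lower of 64 (median 0.15), with Kif17 at 338, 246 and 334 against 1112, 1770 and 985 (2.04 ± 0.32, limma adjusted p = 0.00312; an _s_at probe set). Leaving out single arrays gave 2 to 17 motor genes called higher, the most without control replicate 1. Actin genes had 3 higher and 0 lower of 46 (1 to 9 higher without single arrays). Their 6.52% called higher is near the 6.79% over all genes.

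In the decay machinery few genes beyond the targets were called. Over all genes 6.79% were called higher and 1.66% lower. In lists of this size such shares also give few calls, so the counts do not set these genes apart. Of 19 genes for decapping and decay from the 5′ end the 2 targets were called lower and 0 higher (median -0.23). The decapping scaffold Edc4 had 0.39 ± 0.16, the helicase Ddx6 -0.40 ± 0.24, the paralogue Dcp1b 0.20 ± 0.18 and the cytoplasmic exonuclease Xrn1 0.37 ± 0.36, none called (limma adjusted p = 0.153, 0.277, 0.479 and 0.5). Deadenylation genes, which shorten the poly(A) tail ahead of decapping, gave 0 limma calls of 24 in each direction, and 3 higher and 1 lower at an unadjusted p under 0.05. Its catalytic subunits Cnot7 and Cnot6l had 0.02 ± 0.15 and 0.37 ± 0.23, and the adaptor Btg4 -0.06 ± 0.14. Beside their brightest probe sets, 1 of Tob2 was called higher (1.95) and 1 of Tnrc6a lower (-1.24). Of 19 exosome and nonsense-mediated decay genes Dis3l, a catalytic subunit of the cytoplasmic exosome, was called higher, reading 54.5, 32.3 and 83.3 in control eggs and 212, 181 and 272 after the double knockdown (2.05 ± 0.36, limma adjusted p = 0.00574). In that list 3 further probe sets, not the brightest of their genes, were called lower, those of Ttc37 of the exosome-linked Ski complex (-1.78), Hbs1l, which rescues stalled ribosomes (-0.97), and Mtr (-1.56). Mtr is methionine synthase and stands in the list by its symbol only.

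Regulators of stored mRNA were called in both directions over all their probe sets. Of 35 storage and translation control genes 2 were called higher and 0 lower by their brightest probe sets (median -0.14). The 5.71% called higher is near the 6.79% over all genes. Ybx2, the germ cell Y-box protein that stabilises stored mRNA, read 298, 96.0 and 125 in control eggs and 552, 477 and 530 after the double knockdown (1.76 ± 0.41, limma adjusted p = 0.0223), and Fxr2 had 0.98 ± 0.27 (limma adjusted p = 0.0497). The call for Fxr2 ended under 18 of the alternatives. Of the other probe sets of this list 3 were called lower and 0 higher, 2 of the RNA-binding protein Elavl2 (-0.99 and -1.13) and 1 of the m6A reader Ythdf1 (-1.11). Of 28 dormant mRNAs recruited to polysomes at maturation, Dcp1a and Dcp2 were the 2 called by their brightest probe sets, both lower, and 0 were called higher by limma (median 0.10, with 5 higher at an unadjusted p under 0.05). A further probe set of Kif11, a spindle motor, was called lower (-1.28). Mos and Slbp, classic mRNAs of that kind, had 0.99 ± 0.37 and -0.70 ± 0.39 (limma adjusted p = 0.122 and 0.25).

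Lists of genes of the response to foreign RNA and of stress held few calls. They are small, and beside 6.79% called higher and 1.66% lower over all genes their counts do not set them apart. Of 12 interferon and double-stranded RNA response genes 0 were called in each direction by limma over all probe sets, with a median of 0.06, and 1 higher and 2 lower at an unadjusted p under 0.05. Of 25 p53, apoptosis and stress genes 1 was called, Ddit3, which acts in the response to ER stress, at 42.1, 39.9 and 45.8 in control eggs and 156, 115 and 225 after the double knockdown (1.90 ± 0.29, limma adjusted p = 0.00251). The median of that list was -0.27, with array medians of -0.40, -0.50 and -0.04 in the double knockdown against -0.14, 0.00 and 0.11 in the controls. Ras, MAPK and PI3K signalling genes gave 2 higher and 1 lower of 43. Only 2 cumulus cell markers and 1 marker of other ovarian cells passed the filter, and 0 of them were called. The summed intensity of the 27 cumulus markers was 1676 to 2282 in the controls and 1365 to 1628 in the double knockdown, and 16 of them were at or under 5 on all 3 arrays of each group.

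**Figure D3:**
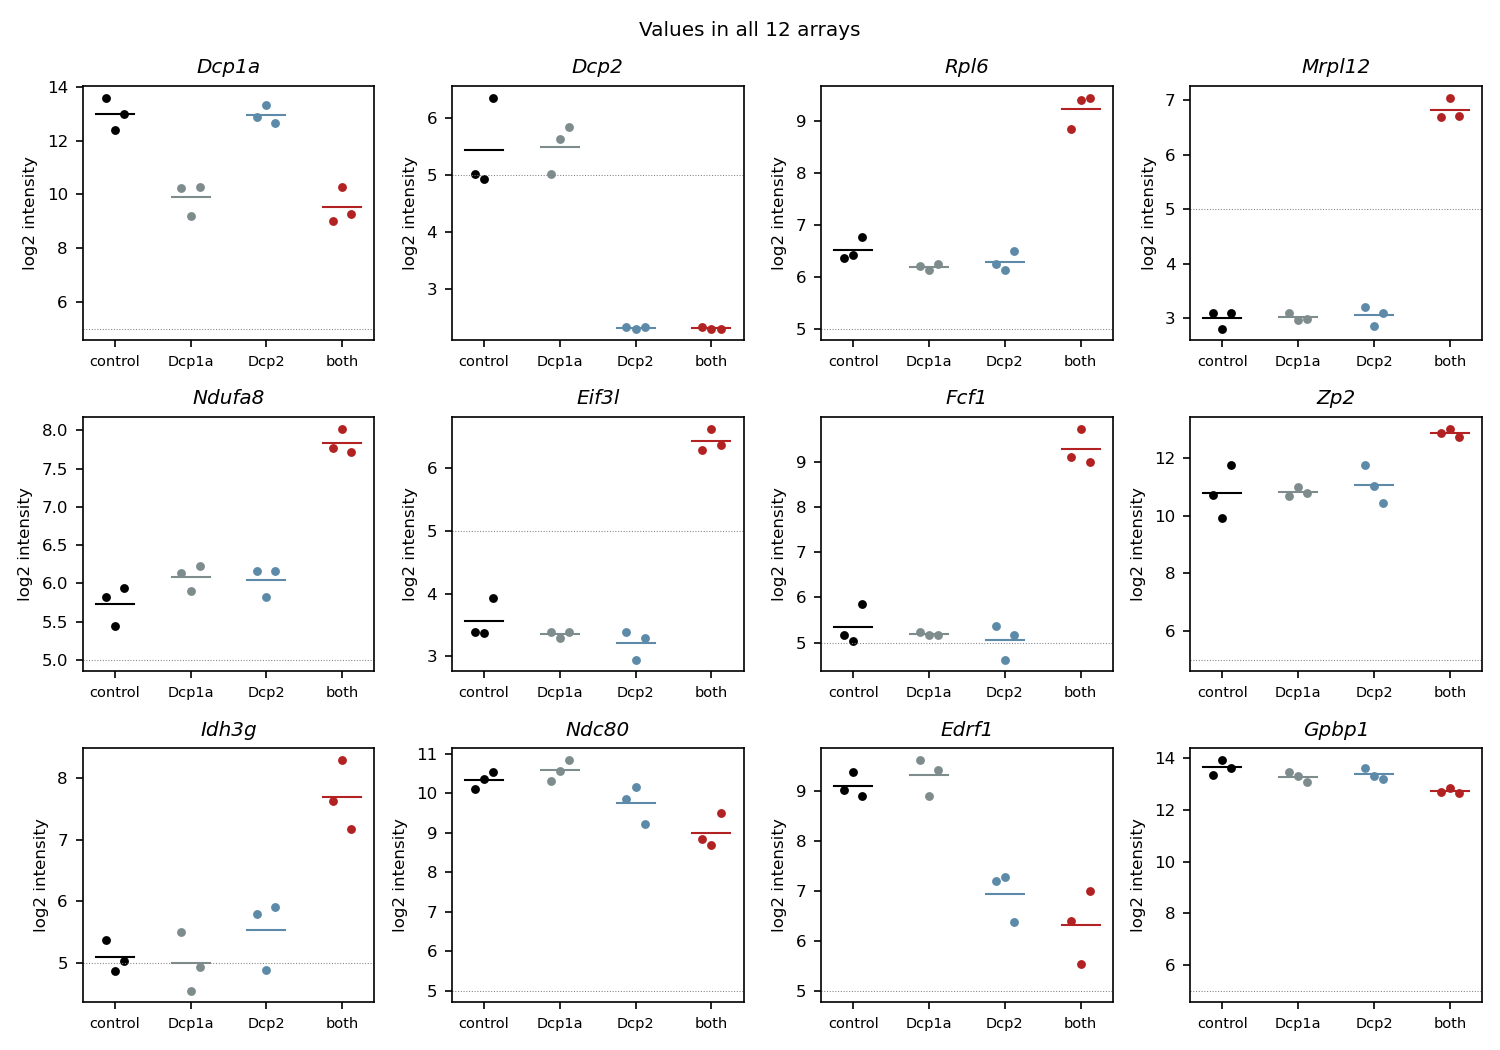
Log2 intensity of 12 genes in all 12 arrays, grouped as control, Dcp1a siRNA, Dcp2 siRNA and both; points are arrays, short lines group means, and the dotted line marks log2 5. Rpl6, Mrpl12, Ndufa8, Eif3l, Fcf1, Zp2 and Idh3g are highest in the double knockdown, with the single knockdowns near control, while Edrf1 is also low after Dcp2 siRNA alone.

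The share of genes called higher was larger among short genes. Span, the distance from the first to the last base of a gene with introns, was known for 6981 genes. Of 289 genes under 3 kb 65 (22.5%) were called higher and 2 lower, and of 1106 genes over 100 kb 26 (2.35%) were called higher and 20 lower. Between them the share called higher was 11% of 1086 at 3 to 10 kb, 7.35% of 2245 at 10 to 30 kb and 4.43% of 2255 at 30 to 100 kb. The median span was 14378 bases for genes called higher, 35507 for genes called lower and 28570 for all. The median log2 change was 0.35 under 3 kb and -0.05 over 100 kb, and under 3 kb the array medians were 0.34, 0.44 and 0.26 in the double knockdown against 0.02, -0.04 and 0.01 in the controls. After Dcp2 siRNA alone, replicates 1 and 3 also had higher medians under 3 kb (0.14 and 0.07) than over 100 kb (-0.16 and -0.12). Replicate 2 did not, with 0.1 over 100 kb. The Dcp1a arrays had 0.05, 0.08 and 0.06 under 3 kb and 0.11, 0.14 and 0.2 over 100 kb. Single arrays moved the shares. Under 3 kb the share called higher was 10.7% and 11.1% without double knockdown replicates 1 and 2, 11.1% without control replicate 2 and 33.6% without control replicate 1, against 0.995%, 0.904%, 1.18% and 13.9% over 100 kb. With the filter on the single-knockdown arrays the shares were 16.3%, 7.82%, 5.05%, 3.42% and 2.04% from the shortest to the longest class.

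Ribosomal and respiratory genes are short, so the order was set out without them. It was then 19%, 8.92%, 7.15%, 4.36% and 2.36% from the shortest to the longest class. With genes read by a plain _at probe set only, it was 16.8%, 7.98%, 6.42%, 4.07% and 2.02%. At a control log2 value of 7 to 9 the shares were 22.8%, 10.5%, 5.37%, 4.14% and 1.47%, and at 9 to 11 they were 20.5%, 7.41%, 2.71%, 1.1% and 0.781%. At 11 to 13 the order was not kept, with 6.67%, 1.4%, 2.36%, 0.904% and 0%, on 2, 2, 7, 3 and 0 genes called. At 13 and over 1 gene, under 3 kb, was called higher. Short transcripts and short genes go together only in part, and transcript length was not analysed here. Span was chosen as a property after calls had been seen.

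**Figure D4:**
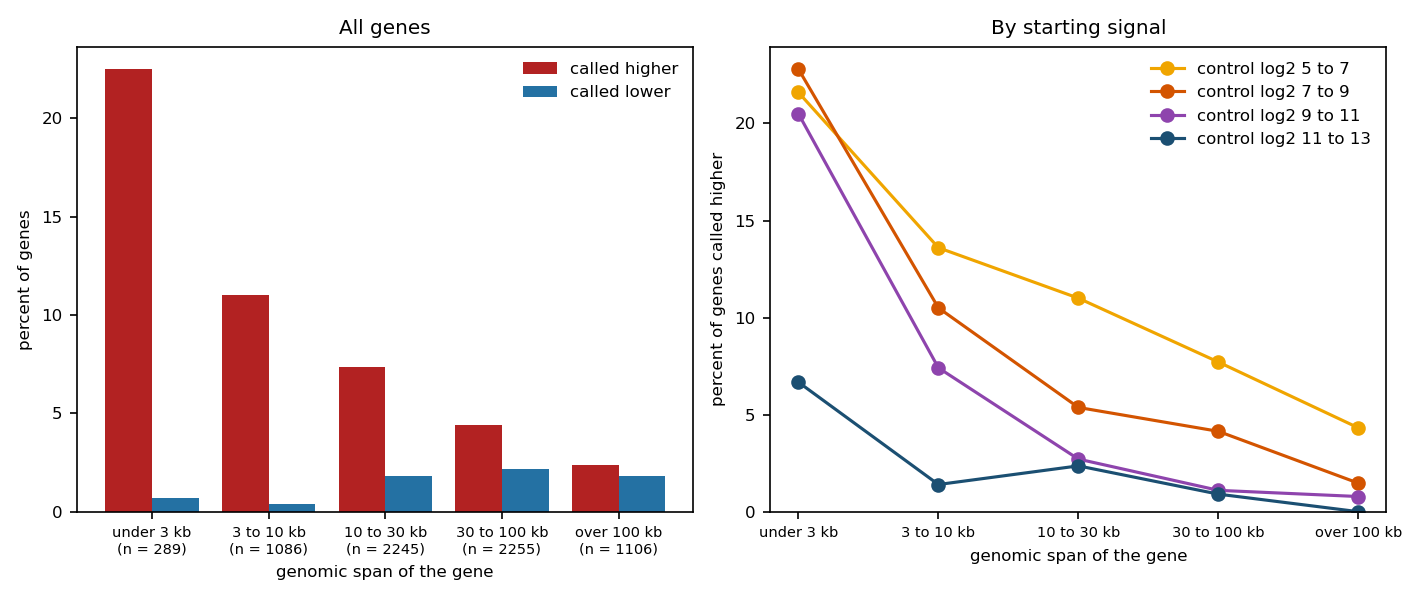
Left, bars give the percent of genes called higher and lower in 5 classes of genomic span; upward calls fall from 22.5% under 3 kb to 2.35% over 100 kb. Right, the percent called higher by span within 4 classes of control signal, 1 line each.

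The promoters of the genes called higher were set beside those of all genes tested. RefSeq promoter windows (GRCm38.p6, 250 bases before to 50 after each listed start) were at hand for 5758 of the 6998 genes, 387 of them called higher and 98 lower. A set of 9 motifs was searched on both strands, with letters chosen after calls had been seen. The ETS core motif CCGGAAGT was in 59 of the 387 promoters of genes called higher (15.2%), in 9.97% of all tested genes, in 7 of the 98 promoters of genes called lower (7.14%) and in 4.31% of all genes of the table. Outside the ribosomal and respiratory lists the share among genes called higher was 15.3%. The YY1 motif AAGATGGCG was in 7.49%, 4.05% and 6.12% of the genes called higher, tested and called lower, and in 1.64% of the table. These shares are descriptions without a test, and a match says nothing of binding.

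The ETS motif is shown in capitals with 20 bases on either side, on the strand of the gene, at all 6 places where it stood before the listed start of a ribosomal or respiratory gene called higher. ACTTCCGG is the same motif read on the other strand.
Mrpl48: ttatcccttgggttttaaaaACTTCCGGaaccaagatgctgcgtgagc
Mrps27: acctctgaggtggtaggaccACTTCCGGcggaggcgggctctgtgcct
Rpl19: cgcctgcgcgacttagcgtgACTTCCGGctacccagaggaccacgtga
Rpl41: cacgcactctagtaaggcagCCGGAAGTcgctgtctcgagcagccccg
Rpsa: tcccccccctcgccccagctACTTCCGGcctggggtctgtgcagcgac
Uqcr11: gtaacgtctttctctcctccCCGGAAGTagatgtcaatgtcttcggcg
In GRCm38.p6 they lie at chr7:100583138-100583185 (minus strand, Mrpl48), chr13:99344717-99344764 (plus, Mrps27), chr11:98026650-98026697 (plus, Rpl19), chr10:128549197-128549244 (minus, Rpl41), chr9:120127557-120127604 (plus, Rpsa) and chr10:80406860-80406907 (minus, Uqcr11). Their motifs start 35, 49, 40, 56, 189 and 66 bases before the listed start. The genes rose by 1.72, 1.15, 3.30, 2.42 and 2.06 in the order shown for the first 5, and Uqcr11 was at least 2.91-fold higher.

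The other motifs were close in share or less frequent among the genes called higher. SP1 boxes (GGGCGGGG) were in 33.1% of them against 39.4% of all tested, E-boxes (CACGTG) in 10.9% against 12.2%, CCAAT in 41.1% against 43.9%, CRE (TGACGTCA) in 4.39% against 3.89%, the NRF1 motif in 2.84% against 2.71%, a CpG-rich palindrome in 1.55% against 1.51% and the ZNF143 motif in 1.03% against 0.92%. Ribosomal protein mRNAs often begin with a C followed by pyrimidines, which links their translation to growth signals. A C with at least 4 pyrimidines after it stood at the listed start of 180 genes, 5.56% of which were called higher against 6.76% of the others, and at 6 of 34 ribosomal protein genes. Listed starts can lie some bases from the start used in eggs, so these letters may miss it.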

How the data were processed

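Double knockdown eggs (Dcp1a+Dcp2 siRNA, 3 arrays) were compared with control siRNA eggs (3 arrays) on Affymetrix mouse arrays, with RNA of 30 eggs per array. The deposited values are linear intensities, 1 per probe set and array, which the authors made with GCRMA (version not given in the sources used here), per the submitters' processing notes. GCRMA models background from probe sequence and normalizes between arrays, so differences in total mRNA do not show. Of the deposited values, 55.6% lay at or under 5 units. The number of arrays limits the precision.

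The log2 of each value was used. After removal of 64 control probe sets from 45101, those with log2 above 5 in at least 3 of the 12 arrays, 11593 in all, were tested. They were named by the platform annotation (10699 with 1 symbol, 334 with several, 560 with none), and 34741 of 34945 symbols matched RefSeq's GRCm38.p6 table. limma 3.58.1 in R 4.3.3 was fitted on the 4 groups over 12 arrays (8 residual and 2.97 prior degrees of freedom), two-sided, with Benjamini-Hochberg adjustment over all tested probe sets and a threshold of 0.05. Errors are standard errors of the fit. A gene was represented by its probe set with 1 symbol and the highest mean over the 12 arrays. A bound sets the brighter group's mean log2 against the dimmer group's, with any dimmer value under 5 raised to 5 first. The procedure was tested on simulated data.

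Named were the targets, from each starting-signal class the 2 called probe sets with the smallest p in each direction (groups not overlapping), and up to 3 called members with the smallest p per list, all with 1 symbol not of clone style, plus their probe sets called the opposite way. Further list members are given by value and were named after their values were seen. The members, the 45 lists and the rule were chosen with earlier results of these data known. A planned split by protein length was replaced by genomic span, as protein sequences were not used here. Alternatives covered variance, replicate block, floor, pseudocount, filter, normalization, probe set choice and leaving out arrays. Leaving out control replicate 1 with Dcp2 replicate 2, and a filter on the 6 single-knockdown arrays, were added after seeing the data.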

Additional observations from a re-analysis of the deposited data

How the results depend on the processing

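Against 768 probe sets called higher and 243 lower, the split was 699 to 364 with median centring and 733 to 404 with quantile normalization, so scaling moved the share of downward calls. The counts were 226 and 51 with the spread of the 6 arrays alone, 458 and 69 with no filter and 465 higher with the filter at log2 7. They were 2059 and 1156 without control replicate 1 and Dcp2 knockdown replicate 2. Leaving out 1 array gave 368 to 1816 higher and 72 to 635 lower. The cause of these shifts was not tested, beyond the number of probe sets or arrays that a setting removes. The median log2 change of the dimmest class (0.71) was 0.0 with no filter, 3.14 with the filter at 7, 0.28 with values under 32 set to 32, 0.35 with log2(value + 32), 0.6 with loess and with quantile normalization, 0.5 with classes by the single-knockdown arrays, 0.29 with the filter on them (524 called higher and 202 lower), 0.86 without the 2 arrays named above and 0.55 to 0.86 without single arrays. At 5 to 7 it was 0.6 with the filter at 7 and -0.05 with quantile normalization. The Dcp1a probe set that was not called had -2.48 to 1.03 without single arrays, reversing at 1.03 without control replicate 1, and 1.03 without the 2 arrays.

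Of 119 named probe sets, the call was lost for 51 with the spread of the 6 arrays, 43 with no filter, 40 and 30 without double knockdown replicates 2 and 1, and 33 without control replicate 2. Deviations of same-numbered control and double knockdown arrays correlated at 0.172, 0.057 and 0.394. Those of same-numbered Dcp2 and double knockdown arrays correlated at 0.114, -0.685 and -0.674. Arrays of different number were not compared, so whether replicate numbers pair the samples was not tested. With the replicate block 630 were called higher and 189 lower, and 9 named calls were lost. Signal near the floor limits the folds of dim probe sets.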
